A study of Mus musculus with 6 samples.

Results

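The genes described here are 10 mouse genes for ion channels and an ion exchanger of the sperm tail: Catsper1, Catsper2, Catsper3, Catsper4, Catsperb, Catsperd, Kcnu1, Lrrc52, Hvcn1 and Slc9c1. They were taken by name and not by a measured value, though earlier results of these data were known when they were chosen. All 10 were found among the 21887 protein-coding genes of chromosomes 1 to 19, X and Y in the RefSeq table for GRCm38.p6, the assembly of mm10. Sperm from the epididymis and vas deferens of C57BL6 wild-type mice (WT, 4 libraries) and of mice carrying the K49A exchange in protamine 1 (2 libraries) were digested with micrococcal nuclease, and DNA of mononucleosome size was sequenced. Protamine 1 is a small basic protein that takes the place of histones when the sperm nucleus is packed, so a called region, or peak, marks nucleosome-sized DNA recovered above the local background. Sperm of both genotypes were first treated with DNaseI and detergents and their chromatin opened with DTT. The sources used here do not state zygosity, age or how many animals went into a library. The design calls the libraries biological replicates, and the p-values cover only the spread from library to library, which may be technical. The lists held 11313, 20458, 22237 and 27903 peaks in WT 1 to 4, against 700 for K49A 1 and 1017 for K49A 2. They give no read counts, so depth is unknown. Lists of DNA regions hold no expression, so the labelled cell type was not checked against markers.

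CatSper is the calcium channel of the sperm tail. Its pore is built from the products of Catsper1 to Catsper4, which are held together with auxiliary subunits such as those of Catsperb and Catsperd, and calcium entry through it drives the vigorous beat that sperm need to fertilise an egg. Kcnu1 encodes SLO3, the potassium channel that sets the sperm membrane voltage, and Lrrc52 its auxiliary subunit. Hvcn1 encodes a voltage-gated proton channel, and Slc9c1 a sodium-proton exchanger of the sperm tail. All are expressed in late male germ cells, and most have little or no role elsewhere.

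RefSeq promoter sequences were at hand for 7 of the 10 genes, as 8 stretches of 250 bases before a transcript start, since Catsperd had a start at 56627047 and a further one at 56628143. A set of 4 is shown to contrast the 2 stretches that lay under a WT peak with others that did not. Each reads 5′ to 3′ on the gene's strand (GRCm38.p6), and capitals mark CpG dinucleotides. The first 2, of Catsper2 (chr2:121413793-121414042, minus strand) and Catsperd (chr17:56626797-56627046, plus strand), were called. Those of Catsper4 (chr4:134227384-134227633, minus strand) and Slc9c1 (chr16:45535016-45535265, plus strand) were called in 0 libraries.
Catsper2: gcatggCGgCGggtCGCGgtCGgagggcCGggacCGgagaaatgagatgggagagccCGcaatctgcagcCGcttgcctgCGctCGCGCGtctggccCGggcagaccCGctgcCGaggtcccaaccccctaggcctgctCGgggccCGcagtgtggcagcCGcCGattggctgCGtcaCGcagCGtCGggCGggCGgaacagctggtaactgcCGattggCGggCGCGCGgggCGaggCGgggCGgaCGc
Catsperd: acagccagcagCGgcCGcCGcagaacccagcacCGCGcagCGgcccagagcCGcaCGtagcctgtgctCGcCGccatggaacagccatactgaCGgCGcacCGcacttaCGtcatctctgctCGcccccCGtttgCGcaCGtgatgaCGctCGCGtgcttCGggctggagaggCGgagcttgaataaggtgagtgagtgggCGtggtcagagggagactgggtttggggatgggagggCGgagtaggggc
Catsper4: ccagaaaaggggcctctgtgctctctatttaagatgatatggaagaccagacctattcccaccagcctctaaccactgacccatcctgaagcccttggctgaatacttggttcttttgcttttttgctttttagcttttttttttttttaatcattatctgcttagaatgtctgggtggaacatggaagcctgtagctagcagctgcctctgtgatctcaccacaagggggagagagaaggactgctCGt
Slc9c1: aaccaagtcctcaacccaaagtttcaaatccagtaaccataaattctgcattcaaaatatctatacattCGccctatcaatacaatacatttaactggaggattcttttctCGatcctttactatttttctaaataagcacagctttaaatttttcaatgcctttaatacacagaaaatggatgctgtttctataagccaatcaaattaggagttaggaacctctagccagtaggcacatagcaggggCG

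The called stretches were the CpG-rich ones. Catsper2 had 35 CpG dinucleotides and a GC content of 74.8%, and the called stretch of Catsperd had 25 and 66.8%. The others had 1 in Catsper4 and Catsperb, 2 in Catsper3, 3 in Slc9c1, 5 in Lrrc52 and 11 at the second start of Catsperd, where the median of 21263 promoters of coding genes was 10. Catsper2 was overlapped by a peak in WT 2, WT 3 and WT 4, and Catsperd in WT 3 and WT 4. Both stretches run into a neighbouring gene: Pdia3, for a protein-folding enzyme, starts at 121413902 on the plus strand, and Lonp1, for a mitochondrial protease and on the minus strand, starts at 56626903. Each pair is thus read in opposite directions from starts close to each other.

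Over all coding genes, promoters with at least 21 CpG dinucleotides were overlapped by a peak in 48.2, 59.9, 67.6 and 82.6% of cases in WT 1 to 4, and those with at most 2 in 0.729, 3.08, 2.90 and 1.71%. Taking all 21263 promoters, peaks overlapped 16.7, 27.9, 31.4 and 35.1% in WT 1 to 4, but 0.0847% in K49A 1 and 0.0611% in K49A 2. Both CpG-rich stretches were thus in a class that WT libraries often called, and the 5 stretches with at most 5 CpG in classes that they seldom called. The second start of Catsperd, with 11 CpG, was called in 0 libraries. Its class of 11 to 20 CpG was called in 18.3, 40.1, 44.7 and 49.9% of cases in WT 1 to 4. These shares are a description over promoters, which can share a peak.

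**Figure D1:**
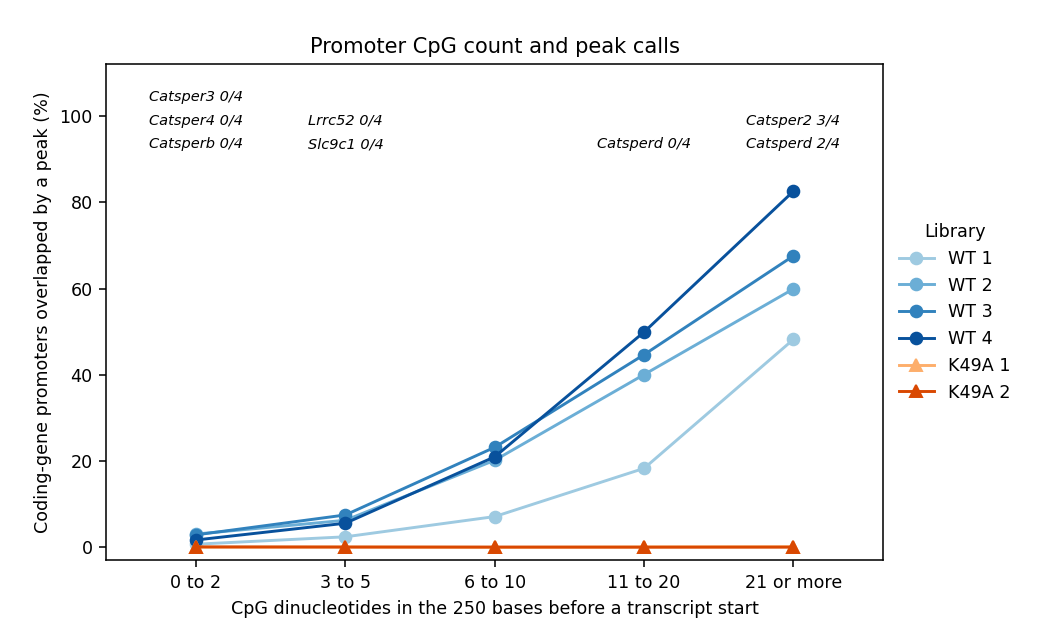
Share of coding-gene promoters (250 bases before a start) overlapped by a peak, against their CpG count, with a line for each library, circles for WT and triangles for K49A. Names at the top give each promoter of the sperm channel genes in its CpG class, with the number of the 4 WT libraries that called it: 3 for Catsper2, 2 for one start of Catsperd and 0 for the other 6 stretches.

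The 5 motifs searched in these stretches, on both strands, do not contain each other. The letters GGGCGG were in the called stretches of Catsper2 and Catsperd, in 0 of the other 6, and in 42.6% of all promoters. CCAAT was in Catsper2, Catsperb and Slc9c1, and in 35.4% of all. TGACGTCA, which reads the same on both strands, TATAAA and GTTGCC were in 0 of the 8 stretches, and in 1.92, 11.6 and 10.5% of all promoters.

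Peaks at these genes were few, weak and differed from library to library. Within 1 kb of either gene end, with an overlap of at least 1 bp, a peak was found at 0, 4, 4 and 3 of the 10 genes in WT 1 to 4, and at 0 in both K49A libraries. Among all coding genes the same call was made for 28.8, 43.0, 46.3 and 49.9% in WT 1 to 4, for 0.429% in K49A 1 and for 0.334% in K49A 2. The channel genes stood at 0, 40, 40 and 30%, near that background in WT 2 and WT 3 and farther below it in WT 1 and WT 4; 1 gene is 10% of the set. The count was 2.75 ± 1.89 genes in WT (SD, n = 4) and 0 in K49A (n = 2), and WT 1 lay with the K49A libraries (two-sided p = 0.4 by exact permutation of the libraries, where 0.133 is the smallest possible). At least 1 K49A library called an end of 0.626% of all coding genes, so 0 of 10 is not a result about the channel genes.

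**Figure D2:**
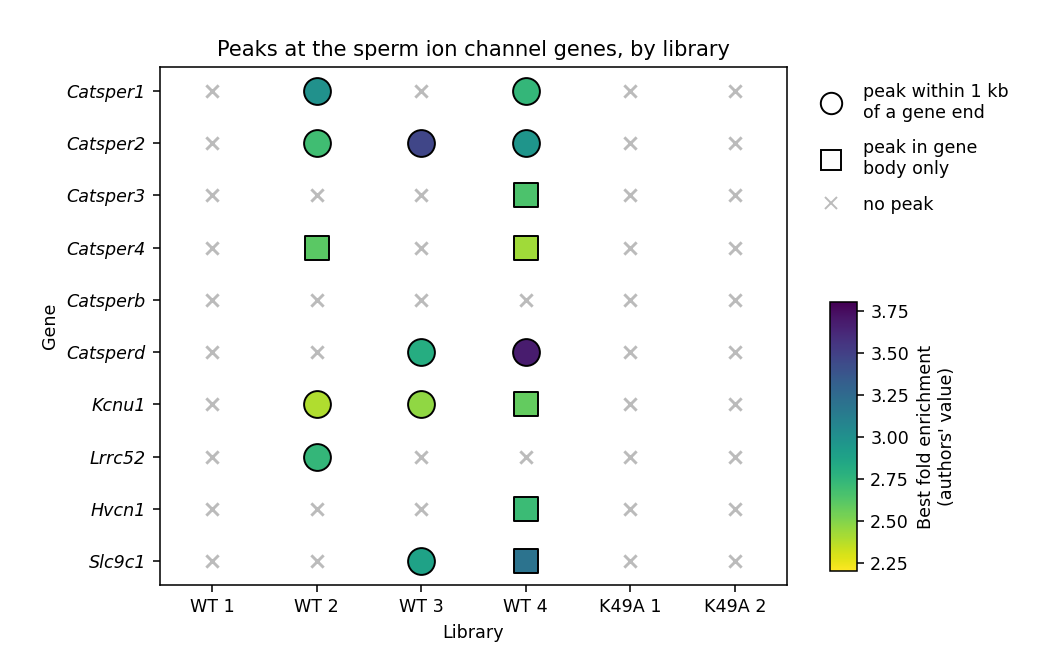
Peaks at each of the 10 genes (rows) in each library (columns). Circles are genes with a peak within 1 kb of an end, squares genes with a peak in the body only, crosses no peak, and colour is the authors' highest fold enrichment among the end peaks, or among the body peaks where there is no end peak, from 2.39 to 3.68. The columns of WT 1, K49A 1 and K49A 2 hold crosses only.

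Among the pore subunits, Catsper2 (chromosome 2, 121391633 to 121414598) was called most often. Its peak spanned 121412827 to 121414120 in WT 2, 121413532 to 121414387 in WT 3 and 121413489 to 121414154 in WT 4, with 589 bp common to all 3. The authors' fold enrichments over local background were 2.69, 3.47 and 2.96 (3.04 ± 0.393, SD, n = 3), and the −log10 q values 1.80, 3.60 and 2.34. By −log10 q the peak stood at percentile 38.2, 87.4 and 60.3 of its own list, where 100 is the strongest. In WT 1, which did not call it, the nearest peak was 34.9 kb away in Serf2. All 3 peaks covered the transcript start at 121413792, and all were also end peaks of Pdia3, so the calls cannot be assigned to Catsper2 alone.

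Catsper1 (chromosome 19, 5335615 to 5344281) had a peak before its low-coordinate end in WT 2 and WT 4, and none inside the gene in any library. The peaks began at 5334406 and 5334444, shared 289 bp, and had folds of 3.00 and 2.74 and −log10 q values that both rounded to 1.94. They ended 883 and 836 bp from the gene, and the peak of Slc9c1 described further on 799 bp, all just inside the 1 kb window. No other coding gene had these as an end peak. In WT 1 and WT 3 the nearest peaks were 21.9 and 22.3 kb away, in Banf1.

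Catsper4 (chromosome 4, 134211965 to 134227431) lay just outside that window. Its peaks in WT 2 (134225623 to 134226380, fold 2.61) and WT 4 (134226014 to 134226333, fold 2.43) were 1051 and 1098 bp inside the gene from its high-coordinate end, which is the start on the minus strand. Catsper3 (chromosome 13, 55784500 to 55824048) had a body peak in WT 4 only, 2417 bp inside its low-coordinate end, with a fold of 2.65 and a −log10 q of 1.37. In the other WT libraries its nearest peaks, 4.40 to 6.65 kb beyond its high end, lay in Pitx1, a homeobox gene of hindlimb and pituitary development. WT 4 was the only library with a peak at each of the 4 pore genes.

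Of the auxiliary subunits, Catsperd was called and Catsperb was not. Catsperd (chromosome 17, 56626911 to 56664456) had a peak over its start in WT 3 and WT 4, with folds of 2.81 and 3.68 and −log10 q values of 1.67 and 5.29. The WT 4 call was the strongest peak at any of the 10 genes, at percentile 93.6 of its list, while the WT 3 call stood at percentile 22.2. These calls had 773 bp in common and were also end peaks of Lonp1, whose start is 8 bp from the low end of Catsperd on the opposite strand. WT 4 had body peaks as well, at 56639982 and 56659409, with folds of 2.64 and 2.58. In WT 1 and WT 2 the nearest peaks were 52.1 and 9.13 kb off.

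Catsperb (chromosome 12, 101404645 to 101626009) was the only gene with no peak at an end or inside in any of the 6 libraries, and at 221365 bp it was the longest. Of all coding genes 29.8% had no such peak in any library, against 1 of these 10 genes. Among 990 genes of at least 200 kb, a limit just under the length of Catsperb, the share was 3.03%. Its nearest WT peaks were 92.0, 193, 85.5 and 92.0 kb away in WT 1 to 4, in Tc2n and, for WT 2, in Fbln5. The nearest in K49A 1 was at 272 kb and overlapped peaks of all 4 WT libraries, and in K49A 2 it was at 4687 kb.

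**Figure D3:**
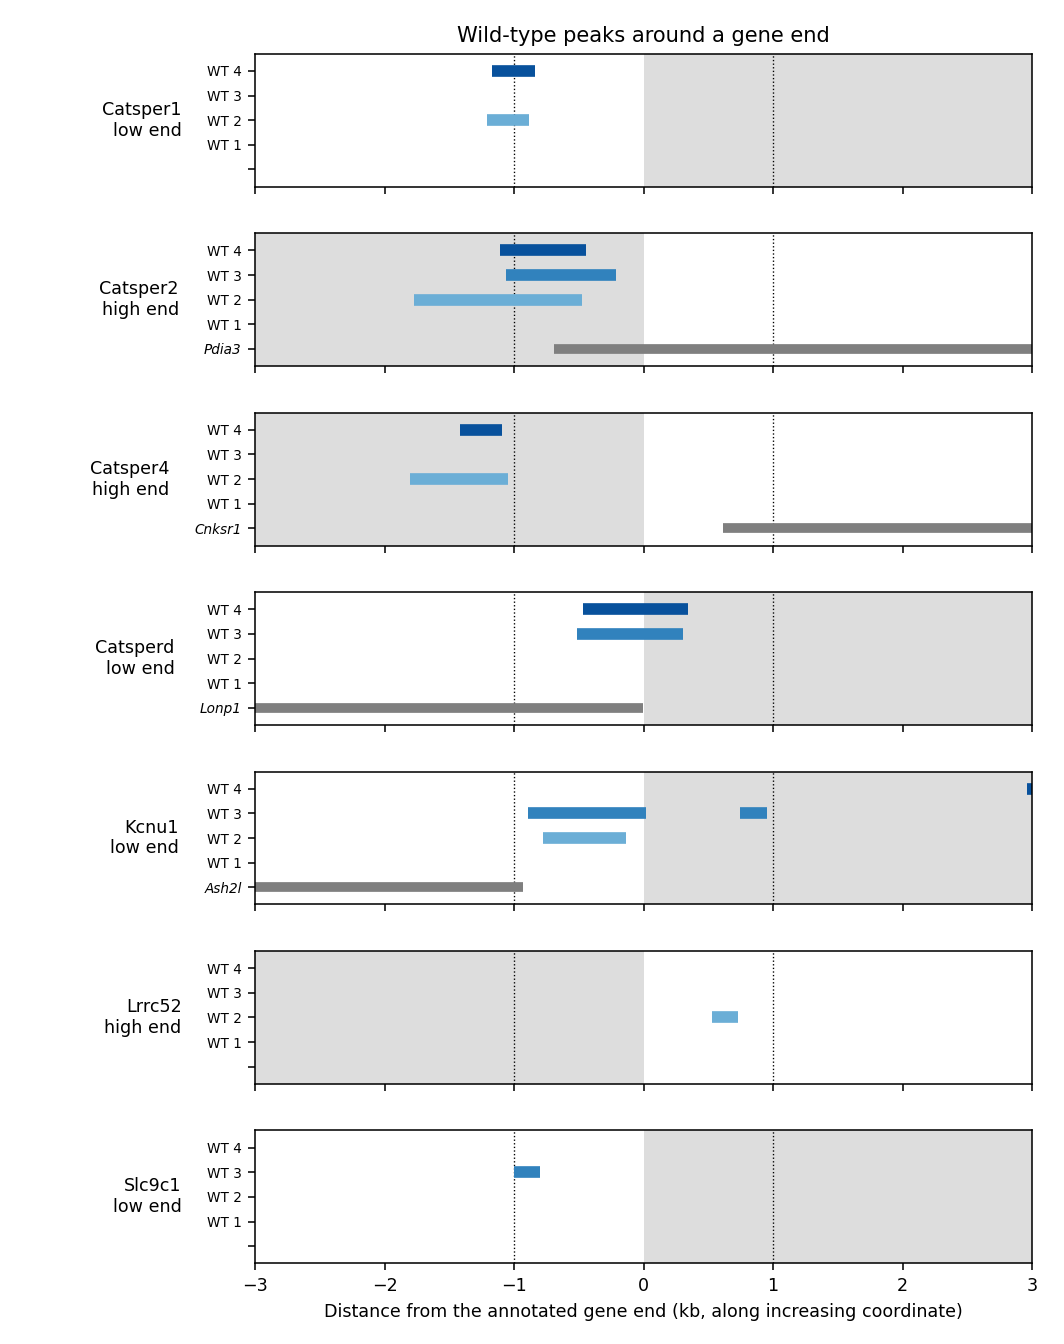
WT peaks (coloured bars, a row for each library) within 3 kb of a gene end at 7 genes, against the distance from that end in kb. Grey shade is the gene body, the dark grey bar the nearest other coding gene where it is in view, and dotted lines mark 1 kb. At Catsper2 and Catsperd the bars also cover the end of a neighbour, and the Catsper4 bars begin 1051 and 1098 bp inside the gene.

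For the potassium channel, Kcnu1 (chromosome 8, 25848627 to 25937943) had end peaks in WT 2 (25847848 to 25848487, fold 2.39) and WT 3 (25847734 to 25848642, fold 2.47). They lay in the 933 bp between Kcnu1 and Ash2l, with the WT 3 peak reaching into Kcnu1, and Ash2l encodes a subunit of histone H3 lysine methyltransferases. Both were end peaks of the 2 genes. WT 3 held 3 further peaks in Kcnu1, 1 of them within 1 kb of the same end, with folds of 2.44 to 3.00, and WT 4 held 2 in its body, at 25851590 and 25855564, with folds of 2.38 and 2.59. Body calls in WT 3 and WT 4 were at different places. Lrrc52 (chromosome 1, 167445675 to 167466780) had a peak in WT 2 only, 200 bp wide and 531 bp before its start, with a fold of 2.74 and a −log10 q of 1.79. In WT 1, WT 3 and WT 4 its nearest peak was 51.3 to 51.8 kb away in Mgst3. WT 2 was the only library with a peak at both the channel gene and its partner.

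Hvcn1 (chromosome 5, 122206805 to 122242297) had a peak in WT 4 only, at 122224931 to 122225601 in the middle of the gene, with a fold of 2.71 and a −log10 q of 1.76. In the other WT libraries the nearest peaks were 21.8 to 42.1 kb away, in Tctn1 or Pptc7. Slc9c1 (chromosome 16, 45535266 to 45607001) had a peak 799 bp before its start in WT 3 (fold 2.88), with body peaks at 45604655 in WT 3 and 45551998 in WT 4 (folds 3.00 and 3.19). These 3 calls were 200 to 203 bp wide and at 3 different places.

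In all, 6 of the 10 genes had an end peak in at least 1 WT library, against 59.8% of all coding genes. By number of WT libraries, 4 genes had an end peak in 0, 2 in 1, 3 in 2 and 1 in 3. The matching shares of all coding genes were 40.2, 11.3, 11.1 and 15.3%. None had one in all 4 WT and neither K49A library, a pattern shown by 21.8% of coding genes. Leaving out WT 1 made it 1 gene, Catsper2, and the share of all coding genes without WT 1 is not given here. At 3 of the 6 genes (Catsper2, Catsperd and Kcnu1) an end peak was also that of a neighbour, and those 3 held 7 of the 11 gene and library pairs with an end call. Another coding gene lay within 1 kb of 7 of the 10, counting overlap, against 31.6% of all coding genes. Genes with such a neighbour had end peaks in 32.5, 51.6, 56.1 and 61.4% of cases in WT 1 to 4, and genes without one in 27.1, 39.0, 41.8 and 44.5%. Of the 7 channel genes with a neighbour 0, 3, 3 and 3 were called, and of the other 3 genes 0, 1, 1 and 0. Where a strand was known, the end peaks of Catsper2, Catsperd, Lrrc52 and Slc9c1 were at the end where transcription starts.

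Peaks inside the gene bodies were found at 0, 2, 4 and 7 of the 10 genes in WT 1 to 4, and at 0 in both K49A libraries. That is 3.25 ± 2.99 genes in WT (SD, n = 4; two-sided p = 0.4 by exact permutation of the libraries), with WT 1 again at the K49A value, and the WT mean was 2 without WT 4. The background was 33.9, 49.5, 53.0 and 57.9% of coding genes in WT 1 to 4, 1.12% in K49A 1 and 1.49% in K49A 2. WT 4, at 70%, was above it and the other WT libraries below. At least 1 WT library had a body peak at 7 of the 10 genes, against 68.1% of all coding genes. In number there were 0, 2, 7 and 10 body peaks, or 0, 3.55, 12.4 and 17.8 per Mb of gene body, against 8.35, 14.0, 15.4 and 18.8 per Mb over all coding genes. They covered 0, 0.364, 0.402 and 0.731% of the summed gene length in WT 1 to 4, and 0 in K49A (two-sided p = 0.4 by exact permutation of the libraries), against 0.395, 0.847, 0.919 and 0.915% over all coding genes. Per length, the 10 genes were below all coding genes in each WT library. Catsperb, the longest gene, has no peak and was left out in a choice made after the values were seen. Leaving out a gene without peaks can only raise these values or leave them at 0, and all coding genes kept their peakless genes. The other 9 genes held 0, 5.85, 20.5 and 29.3 peaks per Mb, still below all coding genes in WT 1 and WT 2 but above them in WT 3 and WT 4. Their coverage was then 0, 0.600, 0.662 and 1.20%, still below all coding genes in WT 1, WT 2 and WT 3 but above them in WT 4. With −log10 q limited to 2 or more, the WT mean over all 10 genes was 1.25 genes with a body peak and 0.113% covered, and with 700 peaks in each list both were 0. The matching values of all coding genes are not given here, so these are no result about the channel genes.

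The calls were weak ones of their lists. Of 24 peaks at the 10 genes, all in WT 2, WT 3 or WT 4, 5 had a −log10 q of at least 2, and 5 stood above the median of their own list. Folds ran from 2.38 to 3.68 with a median of 2.72, where list medians were 2.93, 2.94 and 2.85 in WT 2 to 4. The median −log10 q of the 24 was 1.79, where list medians were 1.98, 2.13 and 2.08 in WT 2 to 4. The 5 at or above a −log10 q of 2 were Catsper2 in WT 3 and WT 4, Catsperd in WT 4, and body peaks of Kcnu1 in WT 3 and Slc9c1 in WT 4. At that level end peaks remained at Catsper2 and Catsperd alone, in 0, 0, 1 and 2 genes in WT 1 to 4, against a background of 16.9, 25.2, 31.7 and 36.7% there, 0.215% in K49A 1 and 0.215% in K49A 2. A fold is relative to the local background of its own library, so folds describe peaks within a list.

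The nearest peak lay farther off in K49A than in WT at most of these genes. The median over the 10 genes was 38.5, 2.64, 8.60 and 0 kb in WT 1 to 4, against 914 kb for K49A 1 and 1284 kb for K49A 2. On the scale log10 (distance in bp + 1) the medians differed by -3.08, WT minus K49A, and the 2 groups did not overlap (two-sided p = 0.133 by exact permutation of the libraries, which is the smallest possible). For all coding genes that median was 18.6, 0.091, 0 and 0 kb in WT 1 to 4, but 1757 kb in K49A 1 and 1297 kb in K49A 2. At 9 of the 10 genes both K49A libraries had their nearest peak farther off than every WT library, from 224 kb at Kcnu1 to 4687 kb at Catsperb, both in K49A 2. Of all coding genes 91.0% had this order, so it is not a result about the channel genes. With the 700 strongest peaks kept in every list, the medians were 1314, 524, 478 and 739 kb in WT 1 to 4, 914 kb in K49A 1 and 2184 kb in K49A 2. The log10 difference was then -0.31, and WT 1 lay between the K49A libraries (two-sided p = 0.267 by exact permutation of the libraries). No channel gene then had an end peak in any library, where the background was 2.13, 1.51, 1.62 and 1.92% in WT 1 to 4, 0.429% in K49A 1 and 0.224% in K49A 2.

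**Figure D4:**
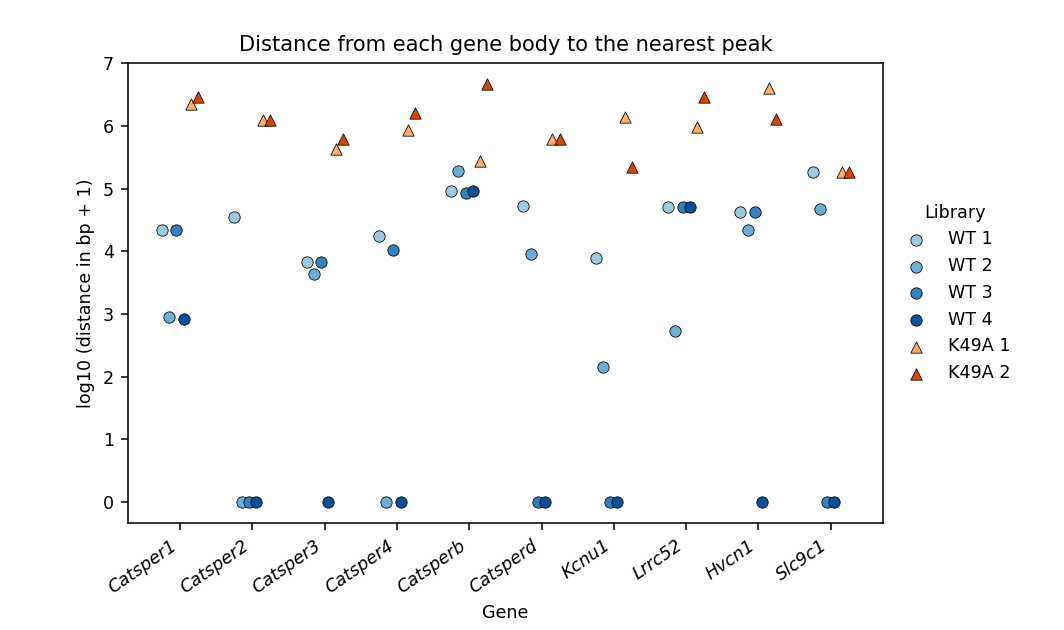
Distance from each gene body to the nearest peak on the scale log10 (distance in bp + 1), where 0 is a peak that overlaps the gene, with circles for WT and triangles for K49A libraries. K49A points lie above all WT points at each gene other than Slc9c1, where WT 1 and both K49A libraries have the same region at 182 kb.

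Slc9c1 was the exception. A region of chromosome 16 at 45352915 to 45353228 (its WT 1 bounds) was the nearest peak in WT 1, K49A 1 and K49A 2, at 182 kb in each, and it was overlapped by a peak in all 6 libraries. The authors' folds there were 4.38, 7.44 and 6.55 in those lists. At Catsperd both K49A libraries had the same nearest peak, at 56005767 to 56006005 in Stap2, 621 kb away and also called in all 4 WT libraries. Of the 20 nearest K49A peaks (10 genes in 2 libraries), 12 overlapped a peak of at least 1 WT library and 10 a peak of all 4. Over the full lists, 79.1% of K49A 1 peaks and 64.9% of K49A 2 peaks overlapped a peak of at least 1 WT library, and 47.1 and 31.2% a peak of all 4. The counts of 12 and 10 of 20 are therefore no result about the channel genes.

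The other genes of the CatSper complex also had end peaks in WT 2, WT 3 and WT 4 alone. Of 10 such genes, an end peak was found at 0, 4, 6 and 7 in WT 1 to 4 and at 0 in both K49A libraries. Among all coding genes the shares were 28.8, 43.0, 46.3 and 49.9% in WT 1 to 4. They were 0.429% in K49A 1 and 0.334% in K49A 2, so 0 of 10 there is not a result about these genes. None of the 10 was called in all 4 WT libraries, against 22.2% of all coding genes. Efcab9, for the calcium-binding partner of CatSper zeta, and Catsperg1 and Catsperg2, for its gamma subunits, were each called in WT 2, WT 3 and WT 4, with mean folds of 2.89, 2.83 and 2.81. Slco6c1 and Tmem249 had no end peak in any library. WT 1, the shortest WT list, thus had an end peak at 0 of the 20 genes in both sets, against 28.8% of all coding genes. That 28.8% is the share in the same list, and the difference from it was not tested.

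Among sperm genes for other ion transport and signalling, end peaks in all 4 WT libraries were found. Of 20 genes, 9, 12, 13 and 14 had an end peak in WT 1 to 4, or 45, 60, 65 and 70% against the 28.8 to 49.9% of all coding genes given above. In all 4 WT libraries 7 had one, or 35% against 22.2% of all coding genes. The leading ones were taken by the mean percentile of their best end peak, not by fold. They were Prkaca, the catalytic subunit of protein kinase A (fold 3.63 ± 0.304, SD, n = 4), P2rx2, an ATP-gated channel (3.14 ± 0.189), and Kcnj11, a potassium channel pore (3.42 ± 0.356). Also among them were Trpv4, a calcium-permeable channel (3.39 ± 0.251), and Atp2b4, the calcium pump of the sperm tail (3.08 ± 0.247). Cftr, a chloride and bicarbonate channel, was called in all 4 WT libraries (3.19 ± 0.341) and in K49A 1 (3.56). WT and K49A folds are each relative to their own library and are not compared. Most of these genes also act in other tissues. Atp1a4, the sodium pump isoform of sperm, named after its value was seen, was called in all 4 WT libraries with a fold of 2.73 ± 0.158 (SD, n = 4). A link between fold and the tissues where a gene acts was not tested.

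Somatic relatives of the channels had end peaks at shares near the background. Of 28 genes, 8, 13, 13 and 16 had an end peak in WT 1 to 4, or 28.6, 46.4, 46.4 and 57.1%, and 7 had one in all 4 WT and neither K49A library, or 25% against 21.8% of all coding genes. Kcnma1, the closest relative of Kcnu1 and the pore of the BK potassium channel, was called in all 4 (3.38 ± 0.219, SD, n = 4), as were the sodium-proton exchanger genes Slc9a2 (3.44 ± 0.407), Slc9a4 (3.01 ± 0.189) and Slc9a8 (3.06 ± 0.292). The calcium channel genes Cacna1i (4.33 ± 0.805) and Cacna1g (2.83 ± 0.327) were too. Of the 28 genes, 9 had an end peak in 0 WT libraries, or 32.1% against 40.2% of all coding genes. Other calcium channel and sodium-proton exchanger genes were among those 9. Lrrc26, which encodes a relative of the Lrrc52 product, was called in WT 1 and WT 4. The sets were compared by their counts alone, and the difference between them was not tested.

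**Figure D5:**
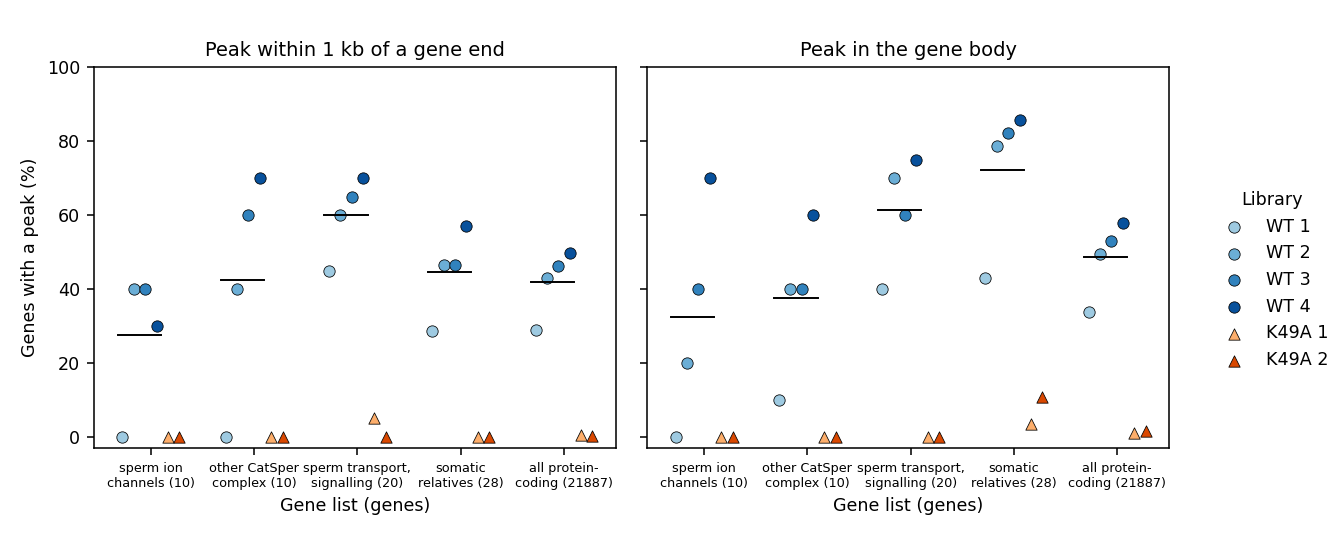
Percent of genes with a peak within 1 kb of an end (left) and in the gene body (right) for 4 gene sets and all coding genes. Each point is a library, circles WT and triangles K49A, and bars are the mean of the 4 WT libraries. At gene ends the sperm ion channels reach at most 40% and the WT mean of all coding genes is 42.0%.

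By the percentile of the best end peak in the 6 libraries, Catsper2 ranked first of the 10. Its closest matches among coding genes were Pdia3, which has the very same peaks, and Fbxw2 and Gm34653, whose percentiles were identical (39.6, 88.1 and 62.2 in WT 2 to 4), with a mean absolute difference of 0.665 percentile points over 6 libraries.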

How the data were processed

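Peak lists of MNase-seq from 4 WT and 2 K49A sperm libraries were used, grouped and numbered by sample title. Chromatin was digested with 5 and then 15 units of nuclease and adaptors carried molecular identifiers, per the labels' protocols. FastQC, BWA, Picard, SAMtools and MACS2 and the build mm10 are named in the submitters' processing notes; tool versions, settings and controls: not given in the sources used here. The deposited lists, one for each library, give each peak's fold (a ratio to local background), −log10 p, −log10 q and a whole-number score, which equalled 10 × −log10 q with its decimals dropped in at least 99.8% of peaks of each list. Every q was below 0.1. No depth is given, so no interval was computed.

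Peaks were placed against gene spans (end windows of 1 kb, overlap of at least 1 bp) with Python 3.11.15, pandas 2.3.3, numpy 2.4.6 and scipy 1.17.1, and the code was tested on simulated data. The library was the unit: values of WT and K49A were compared by exact permutation (two-sided), whose 15 possible splits allow no p under 0.133. Genes and lists were chosen with earlier results of these data known. Named genes were all 10 members, up to 6 of each further list (called in all 4 WT libraries, by mean percentile, or in K49A), genes sharing a member's end peak, and the 3 closest matches of the leading member; genes at nearest peaks, Catsperg1, Catsperg2, Efcab9, Slco6c1, Tmem249, Atp1a4 and Lrrc26 were added after their values were seen. Slc9c2 was in the list but not in the gene table. Alternatives were other windows, stricter limits, equal list lengths, midpoints, left-out libraries and pairings.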

Additional observations from a re-analysis of the deposited data

Results flagged for a closer look

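In 14 groups of 4 WT values, 4 measures over the 10 genes and the log10 distance to the nearest peak at each gene, a library stood apart if its gap to the next, divided by the range, was above the critical value of Dixon's test. Chance does this in about 1 of 20 groups of continuous values. Here every library with a peak in the gene is tied at 0, so that rate is no baseline for these distances. Distances did so at 5 genes. At Catsper2 the ratio was 1, with WT 1 at 34.9 kb and the others at 0. At Lrrc52 it was 0.998, with WT 2 at 0.531 kb and the others at 51.3 to 51.8 kb. At Catsper3 (0.953) and Hvcn1 (0.938) WT 4 had a body peak and the others none. At Catsperb (0.910) WT 2 was farthest, at 193 kb. WT 1 has the shortest and WT 4 the longest WT list; the part of list length in these distances was not tested.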

How the results depend on the processing

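With 4 and 2 libraries the test could not reach 0.05, so no result could gain or lose that threshold, and a kept direction is no sign of stability. Cutting each list to its 700 strongest peaks left 0 genes with an end peak, 0 with a body peak and 0% of gene length covered in every library, so the WT minus K49A difference was 0 in these 3 measures; all coding genes called at an end were then 1.51 to 2.13% in WT and 0.429 and 0.224% in K49A. The mean difference in genes with an end peak was 2.75 as reported, 1.75 with windows of 500 bp, 2 with midpoints, 3.5 with 2 kb, 4 with 5 kb. Shares of all coding genes with the other windows and with midpoints are not given here, so this order is no result about the channel genes. The mean difference was 0.75 with −log10 q limited to 2 or more, and likewise with −log10 p limited to 5 or more. At both stricter limits it was 1.25 (3.25 as reported) for genes with a body peak and 0.113 (0.374 as reported) for percent covered, and the log10 distance differed by -1.74 and -1.41 (-3.08 as reported). Body shares and coverage of all coding genes at these limits, or with 700 peaks, are not given here. The changes in these values are thus no result about the channel genes.

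Leaving out 1 library gave differences of 2.33 to 3.67 genes with an end peak, 2 to 4.33 with a body peak, 0.255 to 0.499% covered and -3.63 to -2.10 in log10 distance. The body count fell to 2 without WT 4. With Catsperb left out, chosen after the data were seen, the covered share differed by 0.616%, and leaving out a gene without peaks can only raise this. The number of genes with an end peak throughout WT but not in K49A was 0 to 1, and the 1 gene, without WT 1, was Catsper2. With a replicate block by title number (WT 1 with K49A 1, WT 2 with K49A 2) the differences were 2, 1, 0.182 and -2.10 (exact sign-flip permutation, p of 1, 1, 1 and 0.5, where 0.5 is the smallest possible). Deviations of same-numbered libraries correlated by 0.0256 and 0.00271 over 21887 genes, and those of WT 4 and K49A 2 by 0.0333. With 2 K49A libraries the deviations are mirror images, so such small values cannot show whether any libraries share a batch. Pairs alike in file name (WT 1 with K49A 1, WT 4 with K49A 2), chosen after the data were seen, differed by 0 and 3 genes with an end peak and by 0 and 7 with a body peak.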
